A study of Mus musculus with 4 samples.

Results

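The nuclear-encoded subunits of the mitochondrial respiratory chain were followed through single-nucleus RNA sequencing of the mouse hippocampus. Members were all genes whose symbol begins with Ndufa, Ndufb, Ndufc, Ndufs, Ndufv, Uqcr, Atp5, Cox4i, Cox5, Cox6, Cox7 or Cox8, together with Sdha, Sdhb, Sdhc, Sdhd and Cyc1. The 8 Ndufaf assembly factors and 1 pseudogene symbol were left out. This rule gave 86 of the 32285 genes: 36 of complex I, 4 of complex II, 9 of complex III, 20 of complex IV (with Ndufa4 and Ndufa4l2 counted there) and 17 of complex V. They lay on 19 mouse chromosomes, and 60 of them were shorter than 10000 bp (GENCODE M21, GRCm38).

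Complexes I and II feed electrons from NADH and succinate into ubiquinone, complex III passes them to cytochrome c, complex IV reduces oxygen, and complex V uses the resulting proton gradient to make ATP. Neurons draw most of the ATP for ion pumping and synaptic transmission from this chain. Most subunits are made in the cytosol from nuclear genes and imported, while a core set is made inside mitochondria from mitochondrial DNA, so a nuclear preparation should hold young transcripts of the former and little of the latter.

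Hippocampi of both hemispheres came from WT mice and from heterozygous Cyfip2+/R87C mice, which carry a knock-in (KI) of the p.Arg87Cys change in 1 copy of Cyfip2, a subunit of the actin-regulating WAVE complex. All mice were on the C57BL/6N background, and the study's methods give the age as 28 postnatal weeks. Each genotype was represented by 2 libraries in 1 labelled batch. The labels do not say how many mice a library holds, so p-values measure the spread between these libraries. The treatment label of KI replicate 2 reads R88C where the other labels read R87C, and the library was kept in the KI group that its genotype label gives. A count per gene cannot show a point mutation, so the counts do not check the genotype labels.

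Barcodes with at least 500 detected genes were kept as nuclei, 12565 to 16000 per library, with a median of 3984.5 to 4846 UMIs (unique molecules counted) each. Libraries held 73009975 to 80913580 UMIs. Between 141 and 176 barcodes of a library also occurred in another one. The nuclear RNA Malat1 took 8.89% and 8.71% of UMIs in WT replicates 1 and 2 and 13.7% and 12.1% in KI replicates 1 and 2, which lowers the share left for every other gene. Levels are given as CPM, the usual scaling of a gene's UMIs by the total UMIs of the same nuclei. Nuclei were assigned to classes by marker genes, none of them a member, and 53.4% to 66.6% of nuclei per library passed the gate. Another 8.53% to 13.6% held markers of a pair of classes and were left out. In the classes tested, 24 of 32 marker genes that the gate had not used were highest in their own class. CA3 pyramidal neurons had only Rnf182 of 3 highest there, CA1 pyramidal neurons lacked Pou3f1, and the subicular and deep-layer excitatory classes had none and were not compared.

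Promoter windows of the members were richer in CpG dinucleotides and in recognition letters of factors that drive genes of mitochondrial function. RefSeq windows (GRCm38.p6, 250 bases before to 50 after the start) were at hand for 68 members. The core CGCATGCG of NRF1 occurred in 9 of these members (13.2%), against 2.07% of 27025 genes. The core of ETS factors such as GABPA, CCGGAAG on either strand, occurred in 17 (25.0%), against 9.93%, and both occurred in 5 (7.35%), against 0.426%. The median window held 19 CpG against 7, and its GC content was 57.3% against 52.7%. Both strands were searched, the NRF1 core reads the same on each, and the cores do not contain one another. A match is a description of the sequence and not of binding. The windows of Cox6a1 (chr5:115348909-115349208, minus strand) and Uqcr11 (chr10:80406772-80407071, minus strand) are shown as members that hold both cores, and those of Cox7b2 (chr5:71548156-71548455, minus strand) and Cox6b2 (chr7:4753045-4753344, minus strand) as paralogs whose windows hold neither. Neither core was found in 47 of the 68 members (69.1%, against 88.4% of all genes), among them the widely expressed Cox7b, Cox7c and Ndufa4. Capitals mark the NRF1 core or the ETS core.
Cox6a1: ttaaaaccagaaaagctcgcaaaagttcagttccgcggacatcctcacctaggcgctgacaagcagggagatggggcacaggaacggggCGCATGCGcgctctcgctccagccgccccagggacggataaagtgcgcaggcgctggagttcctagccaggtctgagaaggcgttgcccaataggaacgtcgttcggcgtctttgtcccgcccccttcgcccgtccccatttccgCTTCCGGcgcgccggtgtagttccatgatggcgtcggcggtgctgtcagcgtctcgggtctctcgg
Uqcr11: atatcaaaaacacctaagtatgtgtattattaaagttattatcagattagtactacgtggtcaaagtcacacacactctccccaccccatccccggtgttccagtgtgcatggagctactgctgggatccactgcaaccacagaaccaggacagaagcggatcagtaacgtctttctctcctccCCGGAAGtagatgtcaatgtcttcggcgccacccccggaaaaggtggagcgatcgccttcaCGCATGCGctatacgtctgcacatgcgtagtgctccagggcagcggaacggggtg
Cox7b2: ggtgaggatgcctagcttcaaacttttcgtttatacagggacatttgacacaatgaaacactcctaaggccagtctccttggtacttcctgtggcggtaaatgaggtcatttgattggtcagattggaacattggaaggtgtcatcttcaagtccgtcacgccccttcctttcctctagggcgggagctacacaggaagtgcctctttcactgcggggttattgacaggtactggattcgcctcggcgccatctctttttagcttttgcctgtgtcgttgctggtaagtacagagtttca
Cox6b2: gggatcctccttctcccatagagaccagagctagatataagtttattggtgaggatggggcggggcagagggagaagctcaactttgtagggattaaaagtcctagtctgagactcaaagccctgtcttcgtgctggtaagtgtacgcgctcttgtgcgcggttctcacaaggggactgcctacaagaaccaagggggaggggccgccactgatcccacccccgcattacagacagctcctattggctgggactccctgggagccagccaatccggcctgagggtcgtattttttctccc

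Uqcr11 and Cox6a1 encode a small subunit of complex III and a nuclear regulatory subunit of complex IV, whereas Cox7b2 and Cox6b2 are the less widespread forms of complex IV subunits Cox7b and Cox6b1. In the sum of all nuclei, Cox6a1 averaged 35.9 CPM (SD 9.38, n = 4 libraries), Cox7b2 4.12 CPM (SD 0.946) and Cox6b2 0.671 CPM (SD 0.22).

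The summed level of the members differed between cell classes, and the order depended on the scale. Endothelial, mural, ependymal and Cajal-Retzius cells, each under 20 nuclei in at least 1 library, were left out of this order. Among the classes compared, astrocytes held 6652 and 5866 CPM in WT replicates 1 and 2 and 6409 and 7187 CPM in KI replicates 1 and 2. Fibroblasts, with few nuclei, held 6467, 6312, 6058 and 7752 CPM and overlapped with them. Microglia averaged 5400 CPM (SD 418, n = 4), oligodendrocytes 5130 (SD 563) and oligodendrocyte precursors 4102 (SD 440). Inhibitory neurons averaged 3136 CPM (SD 327), DG granule neurons 3055 (SD 256), CA1 pyramidal neurons 2409 (SD 258) and CA3 pyramidal neurons 2303 (SD 134). Microglia and oligodendrocytes, inhibitory and DG granule neurons, and CA1 and CA3 pyramidal neurons differed from each other by less than their spread.

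Counted per nucleus, the order was nearly the opposite. CA3 pyramidal neurons held 21.2 member UMIs, inhibitory neurons 20.8, CA1 pyramidal neurons 19.3, DG granule neurons 15.9 and astrocytes 15.5, against 9.84 in oligodendrocyte precursors, 9.65 in microglia and 9.38 in oligodendrocytes. Nuclei of these classes differ in total RNA, from a mean of 9244 UMIs in CA3 pyramidal neurons to 1788 in microglia. A higher CPM in glia therefore means a larger share of a smaller total. Classes with few nuclei also reached neuronal levels per nucleus. Endothelial cells held 14.6, 33.3, 19.7 and 27.8 member UMIs in WT replicates 1 and 2 and KI replicates 1 and 2, on 11 to 36 nuclei. Ependymal cells held 24.0, 24.8, 20.3 and 19.9 on 4 to 14 nuclei, and fibroblasts 15.3, 15.6, 13.2 and 15.8.

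**Figure D1:**
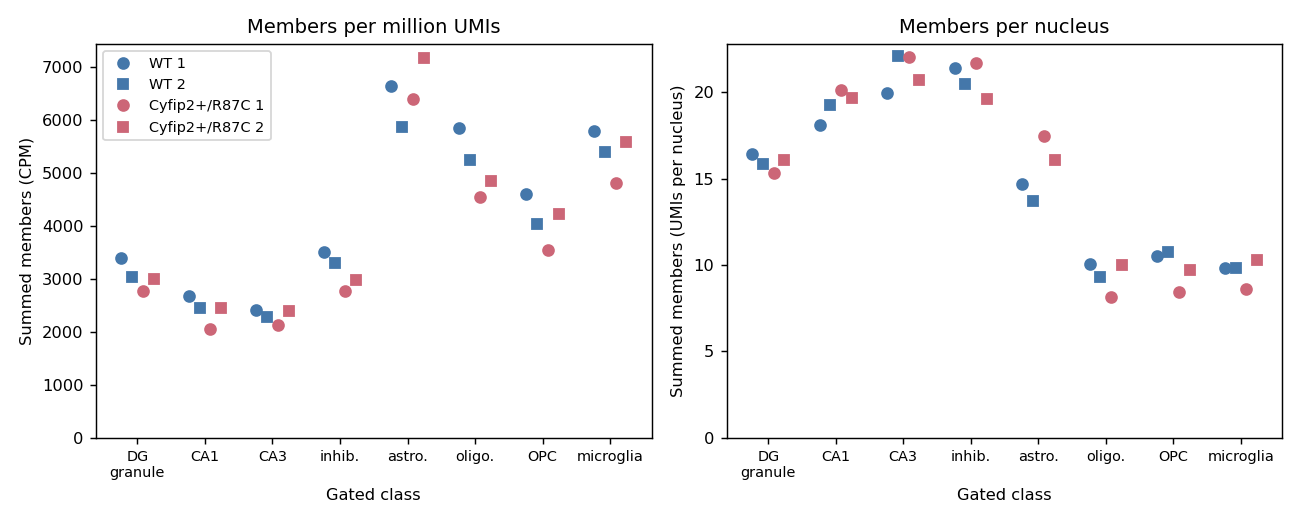
Summed UMIs of the 86 members in 8 gated classes, as CPM (left) and as UMIs per nucleus (right), with 1 point per library (blue WT, red Cyfip2+/R87C). Among these 8 classes astrocytes lie highest in CPM (5866 to 7187). Per nucleus CA3, inhibitory and CA1 neurons lie highest, with CA3 pyramidal neurons at a mean of 21.2 UMIs, and DG granule neurons overlap with astrocytes.

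Each class was compared with DG granule neurons of the same library by edgeR's quasi-likelihood test with the library as a block, TMM scaling and Benjamini-Hochberg adjustment over all genes tested. In CA1 pyramidal neurons 1 of 79 members tested was higher (19.6% of all genes were) and 40 were lower (18.6% of all genes), with a median log2 difference of -0.28 against -0.01 over all genes. In CA3 pyramidal neurons 1 of 79 was higher (23% of all genes) and 55 lower (21.5%), with a median of -0.36 against -0.02. In inhibitory neurons 5 of 80 were higher (25.2%) and 13 lower (24.4%), fewer in each direction than in the background. DESeq2 called 22 members lower in CA1 pyramidal neurons and 10 in either direction in inhibitory neurons, and without 1 library edgeR called 23 to 27 lower in CA1.

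In oligodendrocytes and astrocytes most members were higher. Of 81 members tested in oligodendrocytes, 60 were higher than in DG granule neurons (30.4% of all genes) and 3 lower (31.5%), with a median log2 difference of 0.57. Astrocytes had 67 of 80 higher (26.2%) and 2 lower (28.3%), with a median of 0.81, and microglia 20 of 80 higher (21.2%) and 3 lower (25.8%), with a median of 0.31. The 20 in microglia are near the share over all genes. These counts include low paralogs of complex IV subunits (Cox6a2, Cox6b2 and Cox7b2) with under 20 UMIs in 1 class of the pair, which passed the filter on low counts through the other class alone. Without them the counts were 58 higher and 2 lower of 78 in oligodendrocytes, 66 and 1 of 78 in astrocytes and 19 and 2 of 78 in microglia, and 4 and 13 of 79 in inhibitory neurons, with medians of 0.57, 0.81, 0.31 and -0.04. The count in microglia depended on the setting: nuclei with at least 1000 genes gave 4 higher, and library totals, which shifted the median of all genes to 0.51, gave 71. Relative to that shift the member median was 0.37, and it was 0.38 with TMM. Library totals shifted the all-gene median to 0.30 in oligodendrocytes and 0.28 in astrocytes, and to -0.11 in both CA1 and CA3 pyramidal neurons.

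The complexes were also counted one by one. In oligodendrocytes the median log2 difference from DG granule neurons was 0.61 for complex I, 0.62 for complex III, 0.68 for complex IV and 0.51 for complex V, with 26 of 36, 7 of 9, 11 of 15 and 15 of 17 members higher (30.4% of all genes were). Without the 3 low paralogs complex IV had 9 of 12 higher and a median of 0.65. The 4 subunits of complex II, which is also succinate dehydrogenase of the citric acid cycle, had a median of 0.24 with 1 higher. In microglia complex II (0.34, 0 called) lay level with complexes I, III and IV (0.34, 0.33 and 0.32), and in astrocytes 3 of its 4 members were higher (26.2% of all genes) with a median of 0.43. No difference between complexes was tested. In CA3 pyramidal neurons the medians were -0.37, -0.43, -0.40 and -0.32 for complexes I, III, IV and V, with 27, 6, 9 and 13 members lower (21.5% of all genes were), and -0.13 for complex II with 0 of 4 called.

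Single members varied around these medians. Cox6c, a small complex IV subunit (chr15:35925886-35938246), was at 106, 91.0, 80.8 and 87.8 CPM in the DG granule neurons of WT replicates 1 and 2 and KI replicates 1 and 2. In CA3 pyramidal neurons it was at 44.7, 43.4, 32.9 and 45.8 CPM, below DG granule neurons in every library. The log2 difference was -1.05 (SE 0.08, adjusted p = 6.76e-05). It was also lower in CA1 pyramidal neurons, with a log2 difference of -0.86 (SE 0.07, adjusted p = 0.000129) and in inhibitory neurons, with one of -0.62 (SE 0.08, adjusted p = 0.000339).

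Ndufa10, a complex I subunit with a long gene (chr1:92439010-92473860), went the other way among pyramidal neurons. It stood at 67.9, 72.6, 66.3 and 64.7 CPM in CA3 pyramidal neurons and at 61.9, 59.5, 57.5 and 51.8 CPM in DG granule neurons, higher in 4 of 4 libraries, by 0.32 on the log2 scale (SE 0.06, adjusted p = 0.00537). In CA1 pyramidal neurons the log2 difference was 0.28 (SE 0.07, adjusted p = 0.0206), a call that DESeq2 and scaling by library totals did not make. Uqcr11 had log2 differences of -0.82 in CA3 and -0.61 in CA1, Ndufb11 of complex I one of -0.78 in CA3, and Atp5e, the epsilon subunit of ATP synthase, one of -0.56 in CA1.

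Inhibitory neurons showed a mixed pattern. Cox7b, a complex IV subunit, was at 95.2, 90.1, 73.1 and 99.1 CPM there and at 69.4, 57.9, 45.5 and 60.4 CPM in DG granule neurons, higher in each library by a log2 difference of 0.54 (SE 0.07, adjusted p = 0.000500). Ndufc1 of complex I and Cox5a of complex IV were higher by 0.30 and 0.29 (adjusted p = 0.0464 and 0.0170). Ndufs3, a core complex I subunit, and Cox7a2l, which joins complexes III and IV into supercomplexes, had differences of -0.48 and -0.44 (adjusted p = 0.00310 and 0.00812).

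Ndufs4, an accessory subunit near the NADH-oxidising arm of complex I (chr13:114287795-114388258), was an exception in glia. In DG granule neurons it was at 120, 128, 117 and 110 CPM and in oligodendrocytes at 86.1, 82.3, 74.2 and 74.2 CPM, lower in 4 of 4 libraries with a log2 difference of -0.89 (SE 0.10, adjusted p = 3.34e-05). Ndufb11, by contrast, rose in oligodendrocytes by 0.98 on the log2 scale (SE 0.10, adjusted p = 2.79e-05), from 20.2 to 25.1 CPM in DG granule neurons to 49.4 to 61.3 CPM. Ndufa3 of complex I and Uqcr10 of complex III rose there by 0.95 and 0.93.

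In astrocytes Ndufc2 of complex I (chr7:97400003-97407802) was at 174, 146, 145 and 191 CPM, against 41.6, 34.9, 44.5 and 39.0 CPM in DG granule neurons, a log2 difference of 1.70 (SE 0.14, adjusted p = 3.75e-08). Cox8a, a small complex IV subunit, and Ndufa12 of complex I rose by 1.39 and 1.26. In microglia Ndufc1, Ndufab1 (the mitochondrial acyl carrier protein, also a complex I subunit) and Uqcrb of complex III rose by 0.93, 0.84 and 0.83. Ndufs4, named here after its values were seen, was also called lower in astrocytes and microglia, with log2 differences of -0.42 and -0.61 after TMM scaling. In CPM it overlapped with DG granule neurons there, at 76.6 to 128 CPM in astrocytes and 98.6 to 129 CPM in microglia.

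Gene length ran beside these differences. In oligodendrocytes the 56 members shorter than 10000 bp had a median log2 difference of 0.63 from DG granule neurons with 50 higher and 0 lower. The 11 members of at least 20000 bp had a median of 0.13 with 2 higher and 3 lower, under the 30.4% and 31.5% of all genes. These counts include the low paralogs Cox6a2 and Cox6b2 among the short members and Cox7b2, called lower, among the long. In CA3 pyramidal neurons the 54 short members had a median of -0.41 with 43 lower, and the 11 long members one of -0.12 with 2 lower and 1 higher. Of all genes, 21.5% were lower there and 23% higher. Across members the correlation of the log2 difference with log10 gene length was -0.69 in oligodendrocytes (n = 81), -0.63 in astrocytes (n = 80), -0.57 in microglia (n = 80), 0.55 in CA3 (n = 79), 0.40 in CA1 (n = 79) and -0.05 in inhibitory neurons (n = 80). By rank the sign turned in inhibitory neurons (0.25) and held in the other classes. All of these correlations include the low paralogs where they were tested. They run across genes of the same 4 libraries, which are not independent replicates. The same relation over all genes was not taken, and the part of length in the class differences was not tested.

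**Figure D2:**
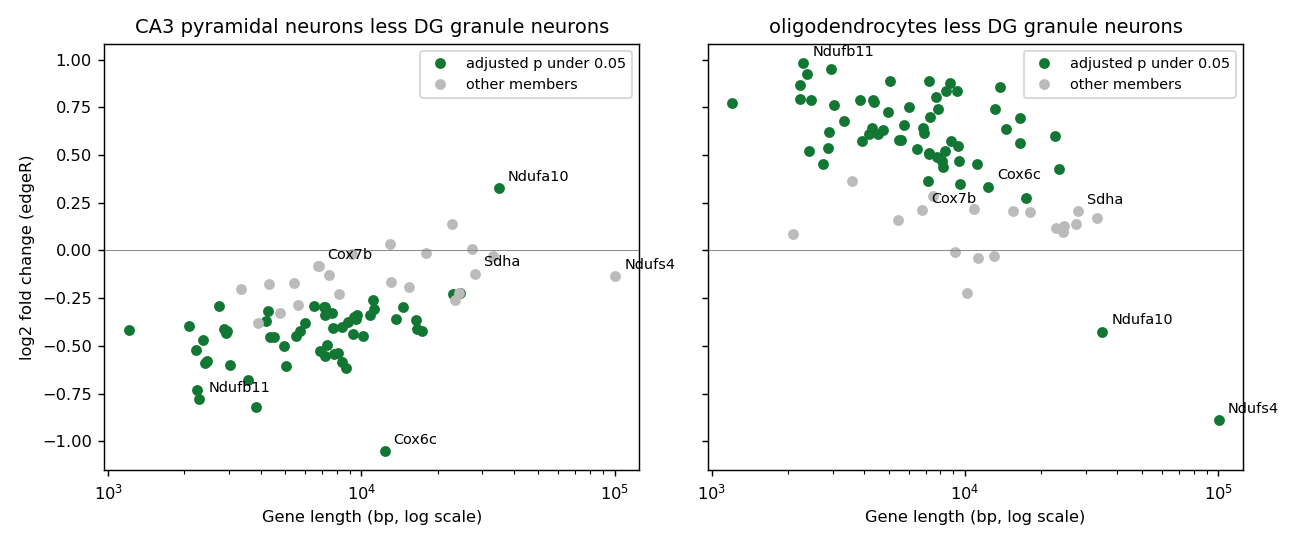
Log2 difference from DG granule neurons (edgeR) against gene length on a log axis, for CA3 pyramidal neurons (left) and oligodendrocytes (right), with 1 point per member of at least 5 CPM on average and members called at an adjusted p under 0.05 in green. Short members lie below 0 in CA3 pyramidal neurons (median -0.41) and above 0 in oligodendrocytes (median 0.63), and Ndufs4 lies at -0.89 in oligodendrocytes.

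The depth of a nucleus ran beside the level in the same way within a class. When the DG granule neurons of each library were ordered by total UMIs and split into 4 bins of equal size, nuclei of the deepest bin held 2.79 to 3.12 times the UMIs of the shallowest, but 1.79 to 1.99 times the member UMIs. Their member CPM was 0.575 to 0.658 of that of the shallowest bin. The ratio was 0.529 to 0.605 for short members, 0.808 to 0.865 for long members and 0.499 to 0.570 for cytosolic ribosomal protein genes. CA1, CA3 and inhibitory neurons gave 0.563 to 0.660 for all members, oligodendrocytes 0.427 to 0.576 and astrocytes 0.666 to 0.930.

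**Figure D3:**
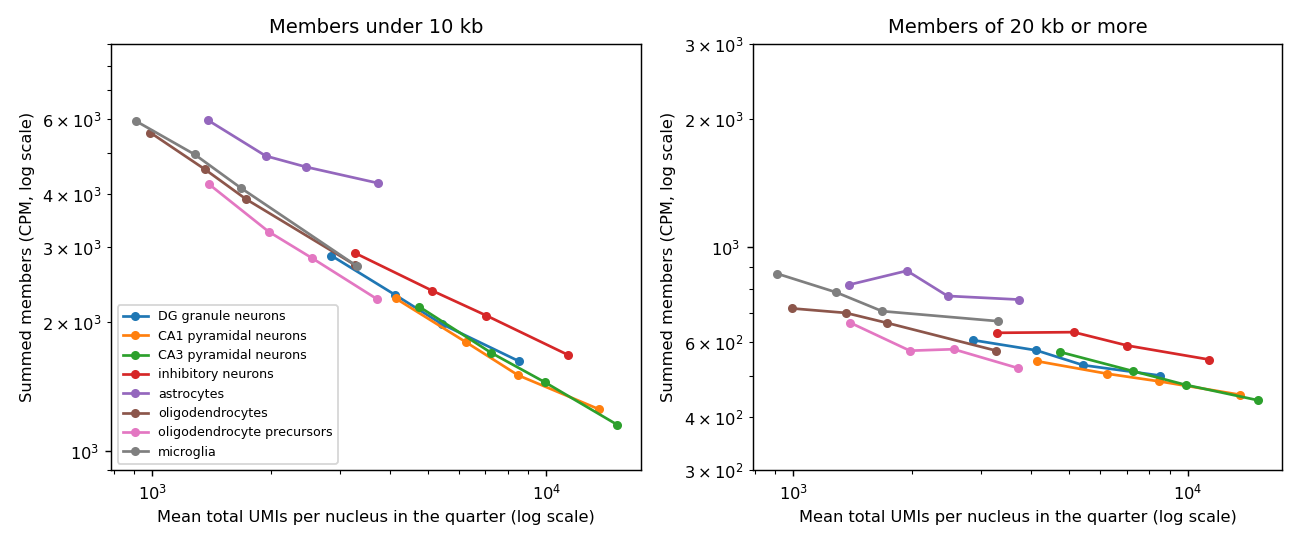
Summed CPM of members under 10 kb (left) and of members of 20 kb or more (right) against the mean total UMIs per nucleus, by depth bin within each of 8 classes, averaged over the 4 libraries. Both axes are logarithmic and both panels span a factor of 10 in CPM, and short members fall more steeply with depth (in DG granule neurons to 0.529 to 0.605 of the shallowest bin) than long members (0.808 to 0.865).

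Free RNA in the droplets was checked, since it reaches nuclei of all classes alike. For the 76 members above 10 CPM, the class with most UMIs per nucleus held a median of 2.31 times as many as the class with least, against 1.86 times for 77 ribosomal protein genes and 5.67 times for 9757 genes. In CPM these medians were 3.17 for members, 3.86 for ribosomal protein genes and 2.79 for all genes. Members were thus more even than all genes per nucleus only. The makeup of the member UMIs was largely alike: 94.0% to 95.4% of it was shared between DG granule neurons and the other neuronal classes, and 89.5% to 91.8% between DG granule neurons and glia. Barcodes under 500 genes, 52 to 100 per library, held 11492 to 13122 CPM of members, more than any class, and shared 82.9% of the member makeup with DG granule neurons. How much of a class's member level is free RNA was not tested.

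Paralogs of complex IV and complex V subunits were compared next. The widespread forms were measured in every class: Cox4i1 averaged 119 CPM in DG granule neurons (SD 12.2, n = 4), 316 in astrocytes (SD 45.7) and 432 in endothelial cells (SD 127). Its paralog Cox4i2, linked to oxygen sensing, had 95 UMIs in 55367 nuclei. In endothelial cells Cox4i2 had 0, 1, 2 and 8 UMIs in WT replicates 1 and 2 and KI replicates 1 and 2, a mean of 41.0 CPM (SD 38.6), over 94 nuclei in all, while no other class except mural cells (1 UMI in 82 nuclei) had a mean above 0.755 CPM.

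Ndufa4l2, the paralog of the complex IV subunit Ndufa4, likewise had its highest CPM in the vascular classes. It averaged 131 CPM in mural cells (SD 103, 14 UMIs) and 72.6 CPM in endothelial cells (SD 46.1, 18 UMIs), and at most 4.21 CPM in any other class, whereas Ndufa4 was at 61.9 CPM in DG granule neurons and 149 in astrocytes. Over the 4 libraries together, the endothelial gate held the endothelial genes Flt1 and Cldn5 at 2932 and 1155 CPM, and the mural gate held them at 221 CPM and 0 UMIs. The mural genes were split, with Pdgfrb at 1107 CPM in the mural and 232 in the endothelial gate, and Rgs5 at 729 in the mural and 1364 in the endothelial gate. Whether the endothelial nuclei include mural RNA was not tested. Both classes fell under 20 nuclei in at least 1 library and were not tested.

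Cox7b2, chosen after its values were seen, had more CPM in neurons. It averaged 4.57 CPM in DG granule neurons (SD 0.546, n = 4), 3.64 in CA1, 4.38 in CA3 and 5.002 in inhibitory neurons, and 1.02 to 1.55 CPM in the 4 glial classes, where it rested on 2 to 12 UMIs. It passed the filter on low counts in the pairs with glia through DG granule neurons alone. Its calls there are among the lower ones counted above, those by length included, and are not used otherwise. Cox7b itself averaged 58.3 CPM in DG granule neurons and 69.8 to 109 CPM in glia. Cox6b2 was at 6.40 CPM in astrocytes (SD 2.19, 20 UMIs) and 30.0 in fibroblasts (SD 28.4, 14 UMIs), and at 0.200 to 0.462 CPM in the 4 neuronal classes tested, while Cox6b1 was at 31.8 CPM in DG granule neurons and 86.5 in astrocytes.

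Cox6a2 averaged 1.91 CPM in inhibitory neurons (2.27, 2.38, 1.47 and 1.52 CPM in the 4 libraries) against 0.374 in DG granule neurons (SD 0.197), while Cox6a1 was at 39.7 and 34.7 CPM. Cox6a2 passed the filter in that pair through inhibitory neurons alone, and its call there is likewise not used beyond the counts and correlations above. Oligodendrocytes held a like Cox6a2 level of 2.17 CPM on 24 UMIs. Cox7a1 averaged 1.42 CPM or less in the 8 classes of more than 1000 nuclei compared here, Cox8b at 24 UMIs and Cox8c at 3 UMIs in all nuclei, against 41.4 CPM of Cox7a2 and 87.5 CPM of Cox8a in DG granule neurons. The 3 genes for the c subunit of ATP synthase, Atp5g1, Atp5g2 and Atp5g3, were at 39.8, 37.4 and 35.2 CPM in DG granule neurons and 88.8, 66.9 and 84.6 CPM in astrocytes.

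KI and WT libraries were then compared in all nuclei together. Of 86 members, 84 passed the filter on low counts (Cox8b and Cox8c did not), and edgeR called 0, against 0.771% of all 21925 genes tested. At an unadjusted p under 0.05 there were 9 members, all lower in KI, against 24.4% of all genes, and DESeq2 called 1. The median log2 difference of members was -0.18, against 0.01 over all genes, with 67 members below 0 and 17 above. In 44 members both KI libraries were below both WT libraries (34.6% of all genes were), and in 4 both were above (26.9% of all genes). The same scale held the 77 ribosomal protein genes at a median of -0.20, with 0 called by edgeR, 7 at an unadjusted p under 0.05 and 1 by DESeq2.

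The sums were also taken per complex. Complex I was at 1241 and 1101 CPM in WT replicates 1 and 2 and at 995 and 1073 CPM in KI replicates 1 and 2. Complex III was at 294, 253, 227 and 244 CPM, complex IV at 856, 743, 620 and 742 CPM, and complex V at 855, 752, 717 and 737 CPM. In each of these both KI libraries were below both WT libraries, by so little in complex IV that WT replicate 2 and KI replicate 2 nearly coincided. Complex II was at 132, 130, 138 and 131 CPM, and its groups overlapped. The log2 differences were -0.18, 0.03, -0.21, -0.23 and -0.14 for complexes I to V.

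With 2 libraries against 2, an exact two-sided permutation test cannot go below p = 0.333, so by that test no difference of sums could pass. Per nucleus the members summed to 16.3, 16.5, 15.7 and 17.4 UMIs, and 4.14, 4.11, 3.60 and 4.41 of these were of complex IV. The groups overlapped for these sums and for complexes I, III and V. Complex II, at 0.639 and 0.722 UMIs in WT and 0.799 and 0.776 in KI, had both KI libraries above both WT libraries. The share of Malat1 moved with the CPM: with Malat1 left out of the total the log2 difference of the summed members was -0.11, where it had been -0.18. In nuclei of the middle of the depth range the WT libraries held 3500 and 3317 CPM of members and the KI libraries 3039 and 3337 CPM, so the groups overlapped, with a log2 difference of -0.097. By class, the log2 difference of the summed members in CPM was -0.16 in DG granule neurons, -0.19 in CA1 pyramidal neurons and -0.24 in both inhibitory neurons and oligodendrocytes, with both KI libraries below both WT libraries, in CA1 by little. In CPM the groups overlapped in the other 5 classes tested. Per nucleus the direction turned in CA1, at 18.1 and 19.3 UMIs in WT and 20.1 and 19.7 in KI, both KI libraries above. On that scale DG granule neurons, inhibitory neurons and oligodendrocytes overlapped.

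**Figure D4:**
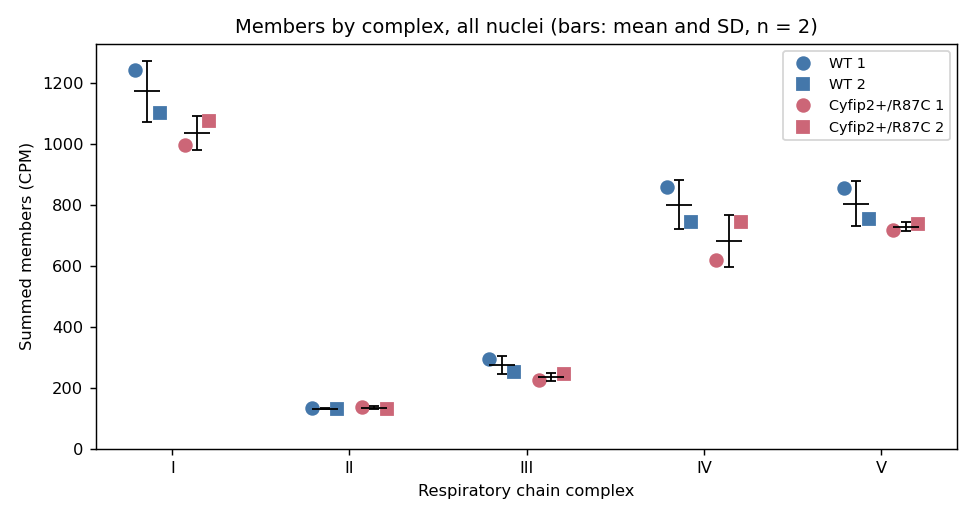
Summed CPM of the members of each complex in all nuclei, with 1 point per library (blue WT, red Cyfip2+/R87C) and bars at the mean and SD of each genotype (n = 2). Complex I was at 995 and 1073 CPM in the KI libraries and at 1101 and 1241 in WT, and complex II overlapped at 130 to 138 CPM.

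Among the members with most UMIs in each complex, Ndufs4 was at 113, 115, 106 and 99.6 CPM, with a log2 difference of -0.09 (SE 0.09, edgeR adjusted p = 0.553). Cox4i1, a nuclear complex IV subunit, was at 131, 114, 114 and 118 CPM, and Uqcrc2, a core protein of complex III, at 47.5, 46.4, 47.3 and 44.7 CPM. Both had overlapping groups. Atp5a1, the alpha subunit of ATP synthase, was at 114 and 110 CPM in WT and at 160 and 114 CPM in KI, a log2 difference of 0.34 (SE 0.18, adjusted p = 0.290) that came from KI replicate 1. Cox8a (chr19:7215153-7217616) was at 107, 91.4, 57.5 and 89.2 CPM, a log2 difference of -0.39 (SE 0.20, adjusted p = 0.282), again with KI replicate 1 apart.

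The 4 subunits of complex II split. Sdha, the flavoprotein that oxidises succinate, was at 72.9 and 69.6 CPM in WT and 83.0 and 74.0 in KI, both KI libraries above. Sdhb, the iron-sulfur subunit, was at 32.2, 32.8, 28.3 and 30.0 CPM and Sdhc, a membrane anchor, at 20.04, 21.2, 16.7 and 19.6 CPM, both KI libraries below. Sdhd, the other anchor, was at 7.10, 6.90, 9.66 and 6.97 CPM and overlapped. The edgeR log2 differences were 0.19, -0.11, -0.13 and 0.30, and the adjusted p ranged from 0.310 for Sdha to 0.514 for Sdhb.

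Uqcrb, a ubiquinone-binding subunit of complex III (chr13:66900617-66905378), had the smallest adjusted p in all nuclei and was chosen after its values were seen. It was at 27.3 and 23.1 CPM in WT replicates 1 and 2 and at 12.8 and 18.2 CPM in KI replicates 1 and 2, with no overlap. The log2 difference was -0.65 (SE 0.18, edgeR adjusted p = 0.125), and DESeq2 called it (adjusted p = 0.0227). In DG granule neurons it was at 28.8, 21.4, 11.9 and 15.4 CPM (adjusted p = 0.0721), in inhibitory neurons at 30.7, 25.3, 12.1 and 18.6 CPM (adjusted p = 0.203) and in oligodendrocytes at 48.1, 42.1, 22.2 and 34.6 CPM (adjusted p = 0.276), with both KI libraries lower each time. With edgeR it was called in DG granule neurons under library totals, with no filter on low counts and when scaled to the summed members, and in inhibitory neurons with no filter. The summed members include Uqcrb itself, and that scaling was chosen after seeing the data. DESeq2, a stricter gate and nuclei with at least 1000 genes did not call it in either class.

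**Figure D5:**
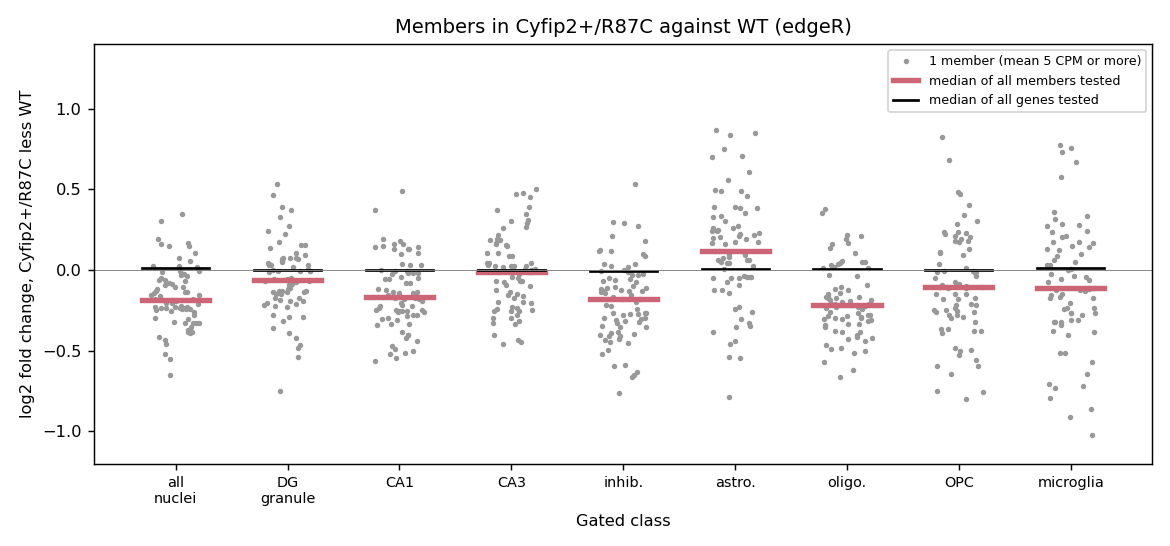
Log2 fold change of KI against WT (edgeR) for members of at least 5 CPM on average, 1 grey point each, in all nuclei and 8 gated classes, with the median of all members tested (red) and of all genes tested (black). The member medians run from -0.22 in oligodendrocytes to 0.12 in astrocytes, and no member reached an adjusted p under 0.05.

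Within classes edgeR called 0 members as well. In DG granule neurons 79 members were tested, 8 had an unadjusted p under 0.05 and DESeq2 called 0, against 8.59% of all genes called by edgeR and 27.5% at an unadjusted p under 0.05. CA1 pyramidal neurons gave 0 of 79, 8 unadjusted and 0 by DESeq2 (7.63% and 26.1% of all genes), and CA3 pyramidal neurons 0 of 79, 7 and 0 (1.51% and 20.2%). Inhibitory neurons gave 0 of 80, 13 unadjusted and 0 by DESeq2 (0.0397% and 15.8%). Of these 13 members all were lower in KI, and their number is close to the share over all genes. The median log2 differences were -0.06, -0.17, -0.01 and -0.18 in these 4 classes.

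In glia, oligodendrocytes gave 0 of 79 by edgeR, 11 at an unadjusted p under 0.05, all lower in KI, and 0 by DESeq2 (0.235% of all genes were called and 13.9% had an unadjusted p under 0.05), with a median of -0.22. Oligodendrocyte precursors gave 0 of 76, 2 and 0 (0.55% and 12.2%), and microglia 0 of 75, 8 and 0 (0.107% and 8.998%), with medians of -0.11 in both. Astrocytes gave 0 of 77, 8 and 0 (0.464% and 13.2%), with 7 of the 8 higher in KI and a median of 0.12. Fibroblasts, with 33 to 53 nuclei per library, gave 0 of 32, 1 and 0 (0% and 6.46%).

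Among members of at least 50 CPM, those with the largest differences were taken in each class, and Atp5a1 was among them in 3 neuronal classes. It was at 115, 105, 171 and 115 CPM in DG granule neurons, at 96.8, 95.8, 129 and 105 CPM in CA1 and at 97.7, 104, 155 and 112 CPM in CA3 pyramidal neurons. The log2 differences were 0.53 (SE 0.20), 0.37 (SE 0.14) and 0.50 (SE 0.17), and the edgeR adjusted p was 0.150, 0.143 and 0.163. Both KI libraries lay above both WT libraries in each, KI replicate 1 well above and KI replicate 2 by little. Atp5a1 was called in DG granule neurons when scaled to the summed members and in CA3 with no filter on low counts. Cox8a was at 78.4, 69.9, 36.0 and 60.9 CPM in CA1 (log2 -0.54, SE 0.20, adjusted p = 0.134) and at 112, 102, 56.5 and 84.9 CPM in inhibitory neurons (log2 -0.50, SE 0.18, edgeR adjusted p = 0.250), where it was called with no filter on low counts. DESeq2, library totals and a stricter gate called neither gene in the classes named.

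The second members named by that rule were Ndufa13 of complex I in DG granule neurons (50.9, 42.1, 64.5 and 45.4 CPM), Cox4i1 in CA3 (83.3, 75.8, 89.0 and 94.6 CPM) and Atp5h, a stalk subunit of ATP synthase, in inhibitory neurons (67.6, 53.6, 35.1 and 53.9 CPM). Cox4i1 was above WT in both KI libraries, and the other 2 overlapped. In oligodendrocytes Atp5o, which joins the stalk to the catalytic head (chr16:91925214-91931687), was at 73.3, 55.2, 42.5 and 37.4 CPM and Atp5j, another stalk subunit (chr16:84827866-84835625), at 86.1, 80.9, 58.2 and 55.5 CPM. Both were lower in both KI libraries, with log2 differences of -0.62 and -0.49 and edgeR adjusted p of 0.261 and 0.259.

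In oligodendrocyte precursors Atp5l and Atp5md, membrane subunits of ATP synthase, had log2 differences of -0.49 and -0.48. In microglia Ndufb5 of complex I and Cox5a had -0.91 and -0.86, on 16 to 65 UMIs in WT replicate 1 and KI replicate 2. In fibroblasts Cox6a1 was at 141, 99.0, 26.9 and 27.7 CPM on few UMIs (11 in WT replicate 1, 3 in KI replicate 2), and Atp5j2 had a log2 difference of -0.94. None of these 6 values had an edgeR adjusted p under 0.365.

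Leaving out 1 library changed these counts, for the members as for all genes. Without KI replicate 2, edgeR called 24 members in all nuclei (4 higher, 20 lower, against 33.2% of all genes), 28 in DG granule neurons (40.1%), 37 in CA1 (39.4%) and 17 in CA3 pyramidal neurons (27.3%). It called 11 in inhibitory neurons (10.7%), 24 in oligodendrocytes (20.9%) and 3 each in astrocytes (5.55%) and microglia (5.05%). KI replicate 1 alone is then assumed to vary like the WT libraries. Atp5a1 was then called higher, and Cox6a1, Cox8a, Ndufa6, Ndufb2 and Uqcrb lower, in 6 comparisons each. Without KI replicate 1 it called 1 in DG granule neurons (18.1% of all genes), 3 in CA1 (21.3%), 1 in CA3 (6.62%), 4 in oligodendrocytes (10%) and 0 in the other 4 comparisons. Leaving out either WT library gave 0 in each comparison.

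In astrocytes the member median lay above 0, as it did in fibroblasts (0.11, with 21 of 32 members above 0), and no member passed the test in either class. Cox6c was at 185 and 149 CPM in WT replicates 1 and 2 and at 327 and 253 CPM in KI replicates 1 and 2, without overlap, a log2 difference of 0.85 (SE 0.21, edgeR adjusted p = 0.100). Cox6c was called with a stricter gate and with no filter on low counts, but not with DESeq2, library totals or nuclei with at least 1000 genes. Ndufa13 was at 117, 90.1, 180 and 146 CPM, a log2 difference of 0.70 (SE 0.22, adjusted p = 0.177). All 12 complex IV members tested were above 0, with a median of 0.28, and in 9 of them both KI libraries were above both WT libraries. The same held for 22 of all 77 members and for 19.6% of all genes. Complex I had a median of 0.11, complex II -0.13, complex III -0.05 and complex V 0.07.

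Transcripts of mitochondrial DNA were read in the same astrocytes. The 13 mitochondrially encoded genes summed to 3103 and 3147 CPM in the astrocytes of WT replicates 1 and 2 and to 6127 and 7338 CPM in KI replicates 1 and 2. edgeR called 7 of 12 tested higher, where 0.464% of all genes were called in either direction, with a median log2 difference of 1.05. mt-Atp6, a proton channel subunit of complex V, was at 336, 352, 957 and 1124 CPM, a rise of 1.63 on the log2 scale. The 77 cytosolic ribosomal protein genes had a median of 0.34 and 21 at an unadjusted p under 0.05 (13.2% of all genes), though only Rps21 was called, rising by 1.08. The share of astrocyte nuclei with at least 1% mitochondrial UMIs was 6.14% and 6.50% in WT and 15.3% and 26.9% in KI.

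Without those nuclei the mitochondrially encoded genes were at 1884, 1939, 2056 and 2197 CPM with 0 of 11 called, the ribosomal protein genes had a median log2 difference of 0.00034, and the members were at 6410, 5704, 5144 and 5727 CPM, so that the summed level was -0.16 on the log2 scale where it had been 0.12. The nuclei were removed by these same mitochondrial UMIs, so the smaller difference in mitochondrially encoded genes was in large part built into the filter. Leaving out WT replicate 1 gave 0 mitochondrially encoded calls and leaving out WT replicate 2 gave 3. The class held 177 and 208 nuclei in KI and 456 and 523 in WT.

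The related genes were read from the same fits. Of 47 assembly factors, 0 of 46 tested were called in all nuclei by edgeR (9 at an unadjusted p under 0.05, where 24.4% of all genes had one, and 2 by DESeq2), with a median log2 difference of -0.15. In CA1 pyramidal neurons 2 of 45 were higher, where 7.63% of all genes were called: Cox19, a copper-handling factor for complex IV, at 19.3, 19.97, 53.3 and 31.2 CPM (log2 1.20, SE 0.26, edgeR adjusted p = 0.0343), and Atpaf1, which assembles the ATP synthase head, at 46.3, 46.5, 78.4 and 66.8 CPM (log2 0.73, SE 0.14, edgeR adjusted p = 0.0226).

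Among 13 regulators of mitochondrial biogenesis, 1 was called in DG granule neurons, near the 8.59% of all genes. Ppargc1a, a coactivator that drives respiratory chain genes, was at 68.0 and 56.7 CPM in WT and at 94.1 and 104 CPM in KI, higher by 0.80 on the log2 scale (SE 0.13, adjusted p = 0.0140), while the member median there was -0.06. Of 16 glycolysis genes, Pfkp and Pfkm, 2 forms of phosphofructokinase, rose in DG granule neurons by 0.92 and 0.66, and Pfkm rose in CA1 by 0.65. These 2 of 16 and 1 of 16 stand beside 8.59% and 7.63% of all genes. In the citric acid cycle list 0 of 14 were called in all nuclei by edgeR or DESeq2, 2 had an unadjusted p under 0.05, and the median was 0.05.

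The lists were also counted between classes. In oligodendrocytes against DG granule neurons 13 of 46 assembly factors were higher (30.4% of all genes) and 13 lower (31.5%), with a median of -0.07. In CA3 pyramidal neurons 8 of 45 were higher (23%) and 6 lower (21.5%). The list lay near those shares in oligodendrocytes and in neither class above them. Of 77 ribosomal protein genes, 75 were lower in CA3 and 73 higher in oligodendrocytes. Mitochondrially encoded genes had 11 of 13 lower in CA3, 13 of 13 higher in oligodendrocytes and 13 of 13 higher in astrocytes.

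The KI effect was last compared between classes. Of the members tested in CA1 pyramidal neurons less DG granule neurons, 1 passed, against 11.5% of all genes. Ndufb3, a complex I subunit (chr1:58586384-58595964), was at 38.8, 39.6, 33.0 and 43.2 CPM in DG granule neurons and at 36.4, 35.8, 23.0 and 32.7 CPM in CA1, so the KI effect in CA1 was lower by 0.41 on the log2 scale (SE 0.13, edgeR adjusted p = 0.0437). It did not pass with library totals, or without any 1 of WT replicate 1, WT replicate 2 and KI replicate 1. In oligodendrocytes less DG granule neurons 0 members passed in edgeR (5 at an unadjusted p under 0.05, DESeq2 not run), against 1.13% of all genes, and Atp5j came nearest with a log2 difference of -0.53 (SE 0.18, adjusted p = 0.2199).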

How the data were processed

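Nuclei of 4 hippocampal libraries (2 per genotype) had been sequenced by 10x 3' RNA sequencing. As deposited by the authors, each library is a matrix of raw UMI counts per gene and barcode, made with Cell Ranger (7.0.1 in the matrix header) against mm10 per the submitters' processing notes and not normalized. Those matrices were used as they stand, and no doublet caller was run: nuclei with markers of a pair of classes were left out instead. Barcodes with at least 500 genes were kept and assigned to 15 classes with 71 gate genes by a likelihood rule set after the data were seen. Counts were summed per library and class, since nuclei are not replicates, and each class had to hold at least 20 nuclei in every library. CPM is the share of the class's UMIs in the library, not divided by gene length, as 3' tags are counted.

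Sums were tested with edgeR 4.0.16 (R 4.3.3, filterByExpr, TMM, glmQLFit and glmQLFTest) with Benjamini-Hochberg adjustment over all genes tested, a call being an adjusted p under 0.05, and class pairs had the library as a block. DESeq2 1.42.0, library totals, other filters and gates, a replicate block and leaving out each library were tried, and the edgeR fits of the genotypes, of class pairs and of the class-by-genotype term were tested on simulated data. Of genes changed by 1 on the log2 scale, the genotype fits recovered 94% in all nuclei, 90% in DG granule neurons and 74% in oligodendrocytes. Class pairs recovered 98% and 100%, and the class-by-genotype terms 39% in CA1 and 26% in oligodendrocytes. Changes smaller than 1 were not simulated. Correlations of same-numbered deviations gave no sign that replicate numbers pair libraries. The members and lists were chosen with earlier results of these data known. Members named in the comparison of genotypes were the 2 of at least 50 CPM with the largest fold change in each class (no member passed the threshold), the member with most UMIs of each complex, all of complex II and the paralogs. Between classes they were the called members of at least 10 CPM with the largest fold change whose 4 libraries lay on 1 side, up to 3 per direction. The precision of a sum is set by its UMIs, and counting error does not include the spread between libraries.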

Additional observations from a re-analysis of the deposited data

Results flagged for a closer look

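The KI effect on Ndufb3, a complex I subunit, differed between CA1 pyramidal and DG granule neurons by a log2 difference of -0.41 (edgeR class-by-genotype term, SE 0.13, adjusted p = 0.0437). Within CA1 both KI libraries were below both WT libraries, and in DG granule neurons the groups overlapped. Scaling by library totals and leaving out WT replicate 1, WT replicate 2 or KI replicate 1 each gave 0 members past the threshold in this comparison. The cause was not tested.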

How the results depend on the processing

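Summed levels of KI against WT were given as log2 differences of CPM (-0.18 in all nuclei, -0.16 in DG granule neurons, -0.19 in CA1 pyramidal neurons and -0.24 in both inhibitory neurons and oligodendrocytes for all members). Counted as UMIs per nucleus, they were 0.0074 for all members, 0.0050 for complex I, 0.21 for complex II, -0.029 for complex III, -0.051 for complex IV and 0.041 for complex V in all nuclei, and -0.037 in DG granule neurons, 0.089 in CA1 pyramidal neurons, -0.020 in inhibitory neurons and -0.098 in oligodendrocytes for all members. With Malat1 left out of the total, complex II was at 0.10 and the members in DG granule neurons at -0.042. With the TMM effective size complex II was at 0.082, and the members were at -0.015 in DG granule neurons and -0.14 in inhibitory neurons. In nuclei of the middle of the depth range the members were at -0.17 in inhibitory neurons and -0.12 in oligodendrocytes. They were at -0.16 in astrocytes under 1% mitochondrial UMIs and -0.34 in oligodendrocytes with at least 1000 genes. The UMIs per nucleus, the middle of the depth range, the scaling to summed members, the crossed pairing and the leave-one-out of sums and of the difference between classes were chosen after seeing the data.

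Counts of members called in KI against WT, 0 by the edgeR test, were 1 with DESeq2 in all nuclei. The replicate block gave 1 in all nuclei (Uqcrb), 2 in DG granule neurons (Uqcrb and Atp5a1), 1 in CA1 (Cox8a) and 1 in CA3 pyramidal neurons (Atp5a1) and changed no other count. Same-numbered deviations correlated by -0.18 to 0.09 over the comparisons. This gave no sign that the numbers pair libraries, but with 2 libraries per genotype it cannot exclude a pairing. The crossed replicate block gave 3 in inhibitory neurons and 0 in microglia. Library totals gave 1 in DG granule neurons, and scaling to the summed members 2. With no filter on low counts there was 1 each in DG granule neurons, CA3 pyramidal neurons, astrocytes and oligodendrocytes and 4 in inhibitory neurons, and a stricter gate gave 1 in astrocytes. Leaving out each library gave 0 to 24 in all nuclei, 0 to 28 in DG granule neurons, 0 to 37 in CA1, 0 to 17 in CA3, 0 to 11 in inhibitory neurons, 0 to 3 in astrocytes and in microglia and 0 to 24 in oligodendrocytes. The lone KI library is then assumed to vary like the WT pair.

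Between classes, DESeq2 gave 0 members higher and 22 lower in CA1 pyramidal neurons and 2 higher and 8 lower in inhibitory neurons, against DG granule neurons, and 1 lower in astrocytes. Library totals gave 0 higher in CA1, 8 higher and 8 lower in inhibitory neurons, 1 lower in astrocytes, and 71 higher and 1 lower in microglia. A stricter gate gave 21 lower in CA1, 2 higher and 7 lower in inhibitory neurons, and 1 lower each in astrocytes and microglia, and nuclei with at least 1000 genes gave 1 lower in astrocytes and 4 higher in microglia. Scaled to the summed members, by construction a measure of departure from the common shift, the counts higher and lower were 5 and 3 in CA1, 10 and 9 in CA3, 22 and 12 in oligodendrocytes, 11 and 11 in astrocytes and 6 and 8 in microglia. Leaving out each library gave 0 to 1 higher and 23 to 27 lower in CA1, 2 to 3 higher and 6 to 12 lower in inhibitory neurons, and 0 to 2 lower in astrocytes. For the KI effect in CA1 less that in DG granule neurons, library totals gave 0, and leaving out each library 0 to 7, and 0 to 7 in oligodendrocytes less DG granule neurons. Apart from the construction named, the cause was not tested. Another 623 alternative values kept their direction and their side of the threshold, or moved by less than the spread.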
